A study of Caenorhabditis elegans with 4 samples.

Results

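The wide GEI-11 peaks at the right piRNA domain of chromosome IV are described here in young adult hermaphrodites of Caenorhabditis elegans. They were chosen by measured values of the combined peak list: a position on chromosome IV with the midpoint at or beyond 13.5 Mb, and a width of at least 150 bp. The rule left 420 peaks out of 2811 in the list, or 14.9%, and 773 peaks of any width lay on that stretch. A peak is a region where a caller found more sequenced fragments in the immunoprecipitate than expected, and its strength is given as −log10 q, where q is its adjusted p-value. A higher value marks a call less likely under background, and the value depends on sequencing depth as well as on enrichment.

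All 4 samples came from strain OP179, grown at 20 °C. The strain carries the unc-119(ed3) allele on chromosome III and the bombarded transgene wgIs179, which holds unc-119(+) and a gei-11 fusion to TY1, EGFP and a 3xFLAG tag. The groups were 2 ChIP samples, collected with an anti-GFP antibody, and 2 input samples of whole chromatin from the same genotype. An untagged strain was not analysed here. The labels do not say whether ChIP replicates 1 and 2 came from separate cultures, so any spread between them may be technical.

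GEI-11, also called SNPC-4, is the worm counterpart of a DNA-binding subunit of the small nuclear RNA activating protein complex. This complex binds an element upstream of small nuclear RNA genes and recruits the polymerase. In the C. elegans germline SNPC-4 is also known to gather at the piRNA gene clusters and to be needed for piRNA expression. The piRNAs, or 21U-RNAs, guide the Argonaute PRG-1 to foreign and own transcripts, and most are made from very short genes, each with a motif upstream. In the RefSeq gene table of assembly WBcel235, 14714 of 15363 piRNA genes (95.8%) were on chromosome IV. The peak positions are on WormBase WS220, another build, so the peaks are given by position and not by gene.

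The list of replicate 1 held 301 peaks and that of replicate 2 held 2140. Read depth was not given in the files, and the combined list comes from the same replicates. Position, width and strength in the combined list, and presence in the replicate lists, are therefore all parts of 1 set of calls. They are given as a description, without tests between groups of peaks. Intervals are exact 95% Clopper-Pearson intervals, which cover counting error alone and take neighbouring peaks as independent.

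The 420 wide peaks ran from 13512176 to 17461626, where the last peak of the chromosome ended, at 106 per Mb. They covered 135.8 kb, or 3.43% of the 3.96 Mb stretch. Their median width was 256 bp, with quartiles at 197 and 378.2 bp and a maximum of 2385 bp. Their median −log10 q was 5.15, with quartiles at 3.78 and 10.2 and a range of 2.02 to 145.6. Most were thus moderate calls, and a small number were very strong. Of the 100 strongest peaks of the whole list 28 were wide peaks of this stretch, and of the 300 strongest 103 were. No narrow peak of the stretch was among these 300. Peaks of any width on the stretch made up 27.5% of the list, and its wide peaks 14.9%. The 28 of 100 were near the first share and the 103 of 300 above it. Both counts were above the second share. The width rule had left out 353 peaks of the stretch, 89.8% of them with a −log10 q below 4.

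The strongest site spanned 14326775 to 14327448, 674 bp wide, and ranked 7 in the whole combined list. Its −log10 q was 145.6 in the combined calls, 44.1 in replicate 1 and 116.4 in replicate 2. Its replicate 1 peak ranked 4 of the 301 in that list. It stood alone among wide peaks, with the nearest one 20877 bp to its left and the next 49855 bp to its right. A narrow peak lay 1024 bp away.

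The second site lay near the left end of the stretch, from 13600587 to 13602389, and was 1803 bp wide. Its −log10 q was 127.8 in the combined list and 93.1 in replicate 2, where a single peak of 1794 bp covered it. In replicate 1 it was split into a peak of 411 bp with 12.9 and a peak of 897 bp with 21.8. No peak of any width lay within 11781 bp of it, and a gap of 51.2 kb without any peak followed on its right.

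The third site spanned 14525236 to 14526098 and was 863 bp wide. Its −log10 q was 111.8 in the combined calls, 29.3 in replicate 1 and 84.4 in replicate 2. The wide peaks on either side were 25827 and 28238 bp away. The 3 leading sites were thus each at least 11781 bp from the next wide peak, while the median distance from a wide peak to its nearest wide neighbour was 1.90 kb.

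The next 5 sites lay apart from each other in the part of the stretch between 14.0 and 17.0 Mb. The fourth, from 14764571 to 14765267, had a −log10 q of 88.9 in the combined calls, 19.9 in replicate 1 and 71.4 in replicate 2. The fifth, from 16592611 to 16593337, was the strongest of the right part of the stretch, with 77.4 in the combined calls, 16.6 in replicate 1 and 60.4 in replicate 2. The sixth and seventh spanned 15648856 to 15649736 and 15693226 to 15693699. The sixth had 72.5 in the combined calls, 19.3 in replicate 1 and 49.7 in replicate 2. The seventh had 66.5, 17.2 and 50.0 in the same lists. Their order was thus not the same in replicate 2, where the 2 values were almost equal. The eighth, from 14013666 to 14014048, was narrower, at 383 bp, with 61.3 in the combined calls, 19.3 in replicate 1 and 46.8 in replicate 2. Its replicate 1 value was close to that of the sixth.

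The ninth and eleventh sites lay side by side. The ninth spanned 15931086 to 15932164 and the eleventh 15932996 to 15933516, with 831 bp between them. The ninth had a combined −log10 q of 52.9 and was split in both replicates: 2 peaks of 8.55 and 4.99 in replicate 1, and 2 of 21.4 and 15.0 in replicate 2. The eleventh had 51.8 in the combined calls, 11.8 in replicate 1 and 39.6 in replicate 2, each from 1 peak. Each split part of the ninth was therefore below the eleventh in the same replicate, while the whole ninth stood above it in the combined calls. The tenth site, 14224826 to 14225260, had 51.9 in the combined calls, 10.6 in replicate 1 and 43.1 in replicate 2.

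The other 9 of the 20 strongest had combined values of 46.6 down to 38.4. In replicate 1 their strongest peaks had 8.03 to 10.3, and in replicate 2 28.7 to 36.6, so the replicates did not overlap in value. They started at 14888660, 14611002, 14464059, 15235039, 16389063, 13881690, 17249670, 14387296 and 14874990, in order of combined strength. The peak at 13881690 to 13883080 was 1391 bp wide. One replicate 2 peak of 1385 bp covered it, and in replicate 1 it was split into peaks with −log10 q of 9.31 and 2.06. The peak at 15235039 to 15235524 stood 328 bp from the site just below the 20 strongest, 15234215 to 15234710, whose combined value was 37.6. All 20 ranked among the first 82 peaks of the whole list and were present in both replicate lists, where their strongest peaks ranked no lower than 100 and 118.

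Of the 20 strongest sites, 15 lay between 14.0 and 16 Mb, 2 in the 0.5 Mb before and 3 beyond. By 0.5 Mb windows from 13.5 Mb, they numbered 2, 5, 5, 1, 4, 1, 1 and 1. The median gap between neighbours among them was 130.6 kb, a length that depends on the choice of 20 sites. The longest, of 656.3 kb, ran from 16593337 to 17249670. The median distance from one of the 20 to the nearest wide peak was 3.26 kb, against 1.85 kb for the other 400. A further wide peak lay within 1 kb of 7 of the 20 (35.0%) and of 126 of the 400 (31.5%).

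**Figure D1:**
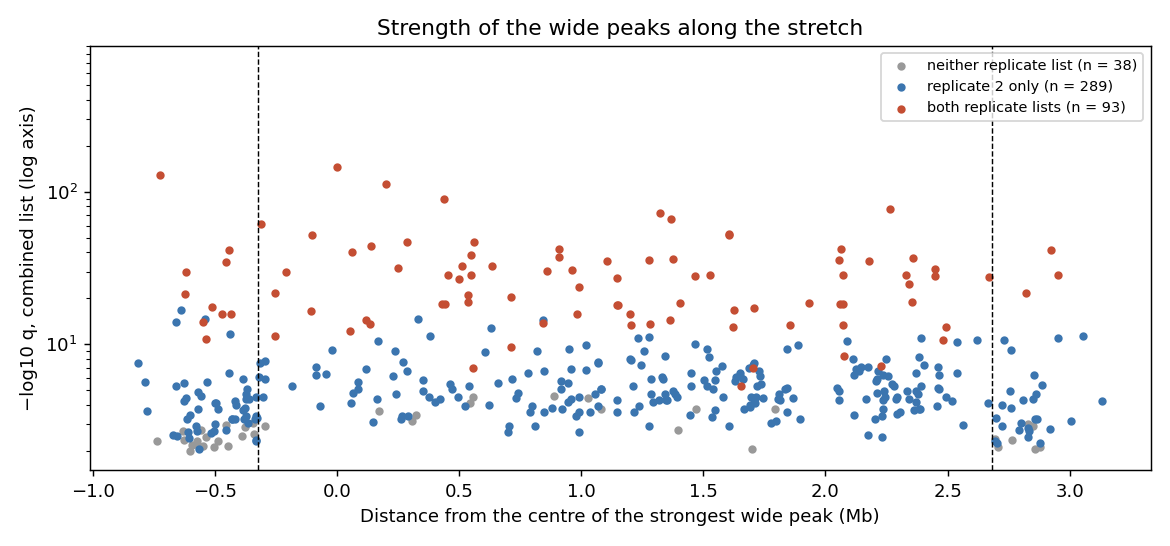
Each point is a wide peak, placed by its distance in Mb from the centre of the strongest one (horizontal axis) and by its combined −log10 q on a log axis (vertical). Colours give presence in the replicate lists (93 in both, 289 in replicate 2 only, 38 in neither), and dashed lines mark 14.0 and 17.0 Mb; the strongest sites are spread over the whole stretch, and the highest of the 38 grey peaks is at 4.58.

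The wide peaks were unevenly spread along the stretch, and the width rule acted differently in 3 segments. The 0.5 Mb window from 13.5 to 14.0 Mb held 81 wide peaks, the windows from 14.0 to 17.0 Mb held 33, 44, 53, 63, 50 and 59, and the last window, cut short by the chromosome end, held 37. Peaks of any width gave another order, with 88 in the first window, 82 in the next and up to 135 between 15.5 and 16 Mb. The difference came from narrow peaks. Between 14.0 and 17.0 Mb, 345 of 647 peaks (53.3%, 49.4 to 57.2) were under 150 bp. From 13.5 to 14.0 Mb 7 of 88 were (7.95%, 3.26 to 15.7), beyond 17.0 Mb 1 of 38 (2.63%, 0.0666 to 13.8), and in the rest of the genome 33 of 2038 (1.62%, 1.12 to 2.27). Nearly every peak of the outer segments was thus a member, but under 50% of those in the middle.

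The change was abrupt at 14.0 Mb. In the 100 kb before 14.0 Mb none of 23 peaks was under 150 bp and the narrowest was 175 bp wide, while in the 100 kb after it 6 of 15 were, down to 6 bp. Around 17.0 Mb peaks were few, with 1 of 4 narrow in the 100 kb before and none of 12 after. In the 0.5 Mb before 17.0 Mb 41 of 100 peaks were narrow, against 1 of 38 beyond. The 1 Mb windows of the middle held 50.5 to 58.4% narrow peaks. No other 1 Mb window of the genome had more than 8 narrow peaks, and among those with at least 20 peaks the share was at most 9.68%. The replicate 2 list differed between the same segments, with 1 of 63 narrow in the first segment, 269 of 528 (50.9%) in the middle and 3 of 32 at the right end. In replicate 1 the only narrow peaks of the stretch, 6 of 84, were in the middle. These segments were set after seeing the widths, and both limits are whole megabase positions. What sets the width there was not tested. Widths may therefore not be comparable across the limits, nor may the strengths, shares and spacing of wide peaks, which rest on the width rule.

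The difference in width was large among weak peaks. Among peaks with −log10 q below 4, the median width was 76 bp in the middle (n = 366), 210.5 bp in the first segment (n = 54), 254 bp at the right end (n = 23) and 276 bp in the rest of the genome (n = 1327). Of the wide peaks, 47 of 81 in the first segment (58.0%) and 22 of 37 at the right end (59.5%) were below 4, against 57 of 302 in the middle (18.9%). The median −log10 q of the wide peaks was 3.40 in the first segment, 5.96 in the middle and 3.26 at the right end. Their median widths were 324, 243 and 279 bp. Among peaks of any width those below 4 were 54 of 88 in the first segment, 366 of 647 in the middle and 23 of 38 at the right end. These shares were similar before the width rule. In the middle the rule left out 309 of the 366 peaks below 4 (84.4%), against 7 of 54 in the first segment and 1 of 23 at the right end. Its part in the higher median of the wide peaks in the middle was not tested.

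**Figure D2:**
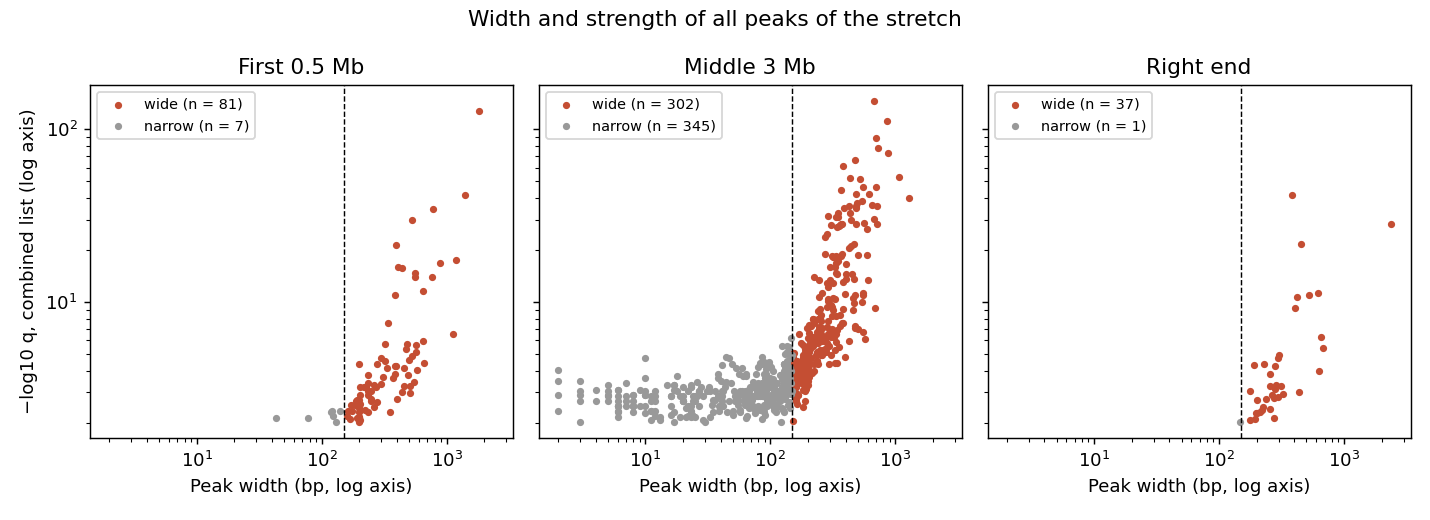
All 773 peaks of the stretch by width in bp (horizontal, log axis) and combined −log10 q (vertical, log axis), in the first 0.5 Mb, the middle 3 Mb and the right end. Red points are wide peaks (81, 302 and 37), grey points are narrow ones (7, 345 and 1), and the dashed line is the width limit of 150 bp; in the middle panel a given strength goes with a smaller width.

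At the width limit, just inside were a peak of 150 bp at 16069950 to 16070099 with a −log10 q of 4.43 and one of 151 bp at 14392537 to 14392687 with 4.80. Just outside were a peak of 149 bp at 16256880 to 16257028 with 3.07 and one of 148 bp at 15119354 to 15119501 with 4.94. At the position limit, the last 2 wide peaks outside, at 13395286 to 13395531 and 13430134 to 13430526, had 3.43 and 24.4, and the first 2 inside, at 13512176 to 13512513 and 13538887 to 13539210, had 7.59 and 5.71.

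Wider peaks were the stronger ones. The median −log10 q was 3.79 for the 111 peaks of 150 to 199 bp, 5.12 for the 145 of 200 to 299 bp, 10.6 for the 110 of 300 to 499 bp and 15.7 for the 54 of 500 bp or more. Spearman's rho between width and strength was 0.655 over the 420 peaks, 0.858 over the 302 of the middle and 0.809 over the 81 of the first segment. Width and q come from the same call at each peak, so these values are a description. The widest peak, 17279363 to 17281747 with 2385 bp, was not among the strongest. Its −log10 q was 28.4 in the combined calls, 3.20 in replicate 1 and 7.62 and 13.4 in replicate 2, where 2 peaks covered it.

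The spacing of the wide peaks was irregular, with many close pairs and some long gaps. Over 419 gaps, counted from the end of one wide peak to the start of the next, the median was 4.52 kb and the quartiles 1.52 and 11.3 kb. The mean was 9.10 kb and the SD 12.7 kb over gaps, a coefficient of variation of 1.39. Gaps under 1 kb numbered 75 (17.9%), those of 1 to 5 kb 149, those of 5 to 20 kb 136 and longer ones 59. No gap was under 214 bp, and between peaks of any width on the stretch none was under 205 bp. The median gap was 2.95 kb in the first segment, 5.08 kb in the middle and 4.04 kb at the right end. The width rule left out 345 of the 647 peaks in the middle but few in the outer segments. Gaps and close groups of wide peaks may thus not be comparable between segments.

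The longest gap ran from 16260564 to 16376115, 115.5 kb, and held 9 narrow peaks. The next, of 80.8 kb, lay at the right end, from 17380574 to 17461345, and no peak of any width was in it. The gap of 75.3 kb from 14143289 to 14218554 held 1 narrow peak. Before the longest gap stood a peak of 597 bp, from 16259968 to 16260564, with −log10 q of 18.6 in the combined calls, 2.16 in replicate 1 and 14.4 in replicate 2. After it stood a peak of 200 bp at 16376115 with 5.17, absent from replicate 1 and at 4.33 in replicate 2. The shortest gap, 214 bp, parted the peaks at 13757306 to 13757793 and 13758008 to 13758540, with combined values of 3.78 and 4.86. One replicate 2 peak of 967 bp with 6.29 lay over both.

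With neighbours less than 1 kb apart joined, 133 of the 420 wide peaks (31.7%) fell into 58 groups and 287 stood alone. Of the groups 43 were pairs, 13 were triplets and 2 had 4 peaks. The groups spanned a median of 1370 bp. One group of 4, from 15471394 to 15474159, held peaks with −log10 q of 3.60 to 27.1. The other, from 16398155 to 16401008, held peaks of 8.42 to 28.3. Strong calls and calls below 4 thus stood together in the first. By segment 15 groups lay in the first 0.5 Mb, 37 in the middle and 6 at the right end.

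**Figure D3:**
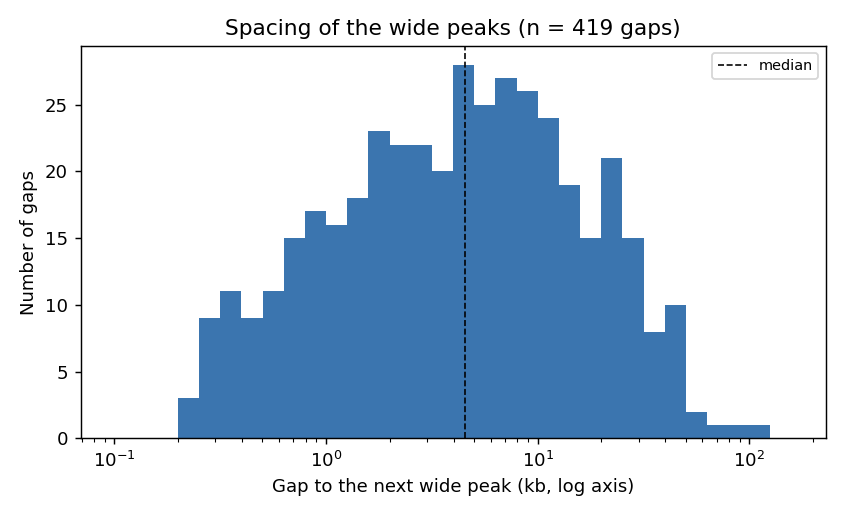
Number of gaps between neighbouring wide peaks (vertical axis) by gap length in kb on a log axis (horizontal), for 419 gaps, with the median of 4.52 kb as a dashed line. The gaps run from 214 bp to 115.5 kb and are most numerous around the median.

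Away from the stretch wide peaks were farther apart. Left of it on chromosome IV the median gap between 308 wide peaks was 25.8 kb, with 5.54% under 1 kb. On the other chromosomes the median gaps were 19.1 to 62.4 kb, and 4.38 to 7.09% of gaps were under 1 kb. The stretch was already known from earlier results of these data to be dense in peaks, so the shorter gaps are no separate result. The coefficient of variation was 1.16 left of the stretch and 1.13 to 1.43 on the other chromosomes, a range that includes the 1.39 of the stretch.

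Of the 420 wide peaks, 93 (22.1%, 95% CI 18.3 to 26.4) overlapped a replicate 1 peak by at least 1 bp and 382 (91.0%, 87.8 to 93.5) a replicate 2 peak. Of all combined peaks 10.5% and 72.6% did so, and of all 2425 wide peaks 12.0% and 76.0%. Among the 773 peaks of any width on the stretch the shares were 12.4% and 74.1%, near those of the whole list. The width rule left out 353 of these 773, against 33 of 2038 peaks in the rest of the genome. The wide sets were thus not cut alike, and the part of the rule in their difference was not tested. All 93 wide peaks of the stretch found in replicate 1 were in both lists. Another 289 were in replicate 2 only, none in replicate 1 only and 38 (9.05%) in neither. Of the 353 narrow peaks of the stretch 3 were in replicate 1 and 191 (54.1%) in replicate 2. Read the other way, 96 of the 99 replicate 1 peaks on the stretch (97.0%) and 384 of the 623 replicate 2 peaks (61.6%) overlapped a wide peak.

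The wide peaks present in replicate 1 were mostly the strongest ones. With the 420 cut into 4 equal groups by strength, 87 of 105 in the top group (82.9%, 74.3 to 89.5) were in replicate 1, 6 of 105 in the next and none of 105 in each of the lower 2, with an upper bound of 3.45%. In replicate 2 all 105 of both upper groups were present, then 98 (93.3%) and 74 (70.5%). All of the 50 strongest were in both lists, and of the 100 strongest 86 were in replicate 1. The combined strength is built from the same replicates, so this order is partly given.

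The strongest wide peak missing from replicate 1 was 68th in strength among the 420. It spanned 13687025 to 13687917, 893 bp wide, with −log10 q of 16.8 in the combined list and 14.4 in replicate 2. The strongest missing from replicate 2 was 241st, a peak of 164 bp at 15215638 to 15215801 with 4.58, and it was in neither list. The 38 peaks found in neither list had a median −log10 q of 2.64 and a range of 2.02 to 4.58. Of them 18 lay in the first segment (of 81), 13 in the middle (of 302) and 7 at the right end (of 37). Replicate 2 held 77.8% of the wide peaks in the first segment, 95.7% in the middle and 81.1% at the right end, and replicate 1 held 12.3%, 26.5% and 8.11%. Median strength was also highest in the middle. The width rule left out 345 of the 647 peaks there, against 7 of 88 in the first segment and 1 of 38 at the right end. These shares are therefore of sets cut differently, and the part of strength or of the rule in them was not tested.

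Wide peaks of like strength on the stretch and elsewhere had the following shares in the replicate lists. With −log10 q of 16 or more, 68 of 69 were in replicate 1, against 31 of 32 left of the stretch and 88 of 89 on the other chromosomes. From 8 to 16, the shares were 37.5% (24.9 to 51.4), 51.4% (34.0 to 68.6) and 40.2% (31.0 to 49.9), with overlapping intervals. From 4 to 8, 165 of 169 were in replicate 2, against 70 of 70 and 372 of 372. Below 4, the replicate 2 shares were 73.0% (64.4 to 80.5) on the stretch, 60.8% (53.1 to 68.2) left of it and 57.6% (54.6 to 60.5) on the other chromosomes. The median −log10 q within this lowest class was 3.12, 2.70 and 2.68 in the same order, so the stretch held stronger peaks in it. Among peaks below 4, the width rule left out 84.4% in the middle of the stretch and 2.41% in the rest of the genome. The sets of this class were thus not cut alike, and the difference was not tested.

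**Figure D4:**
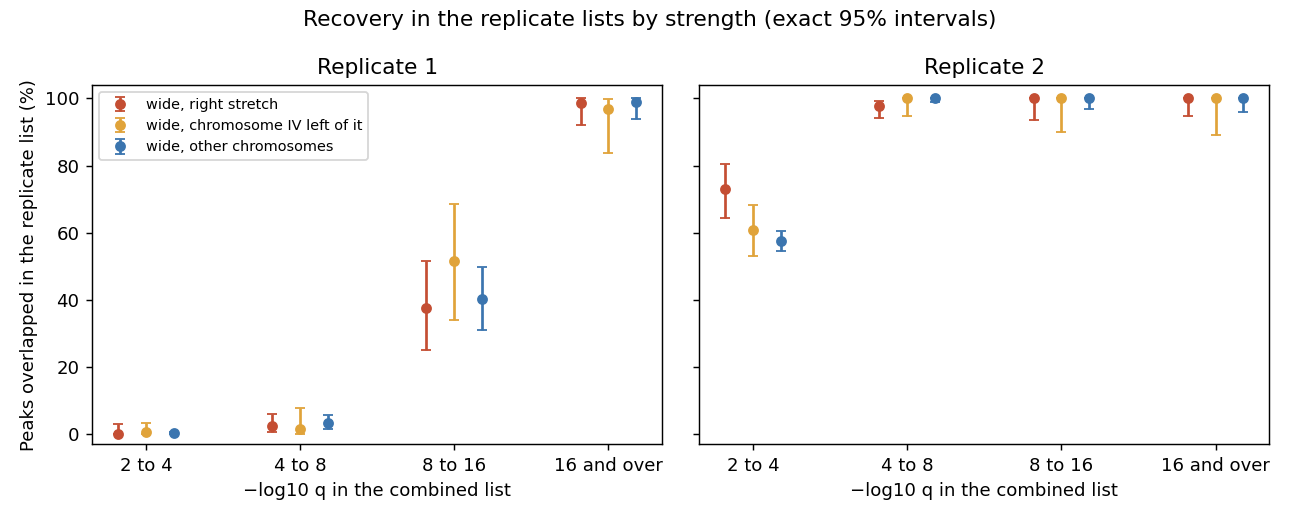
Share of wide peaks overlapped in the replicate 1 list (left) and the replicate 2 list (right), in percent with exact 95% intervals, by class of combined −log10 q. Red stands for the stretch, orange for chromosome IV left of it and blue for the other chromosomes. The intervals of the 3 sets overlap in each class except below 4 in replicate 2, where that of the stretch (64.4 to 80.5) lies above that of the other chromosomes (54.6 to 60.5). Below 4 the width rule left out a larger share of peaks on the stretch than elsewhere.

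The 2 replicates placed the shared peaks at nearly the same positions. Over the 93 wide peaks in both lists, the midpoints of the strongest replicate 1 and replicate 2 peaks differed by a median of 24 bp, and by at most 100 bp in 80 of the 93 (86.0%). The largest difference was 416.5 bp. Both replicate peaks had to overlap the same wide peak to be counted, so their closeness is partly given by the choice. Median widths at these sites were 290 bp in replicate 1, 366 bp in replicate 2 and 400 bp in the combined list, and replicate 2 was the wider in 82 of 93. Over all wide peaks, those in both lists or not, replicate 1 had 2 peaks in 3 of them and replicate 2 had 2 in 3. Of the latter, the wide peak at 16054076 to 16054628 was absent from replicate 1 and so is not among the 93.

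Replicate 2 gave the higher value at every shared site. The −log10 q of the 93 ran from 2.03 to 44.1 in replicate 1 with a median of 5.48, and from 3.51 to 116.4 in replicate 2 with a median of 17.5. The replicate 2 value was higher in 93 of 93, by a median ratio of −log10 q of 3.40 (quartiles 2.68 and 4.06). The combined value exceeded both in 93 of 93. Across these peaks Spearman's rho between the replicates was 0.870 and Pearson's r 0.943. Peaks share a library within each list and their choice required presence in both, so the values describe the order of the sites only. Since q falls with depth and the depth of both libraries is unknown, the ratio cannot be read as a difference in binding.

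**Figure D5:**
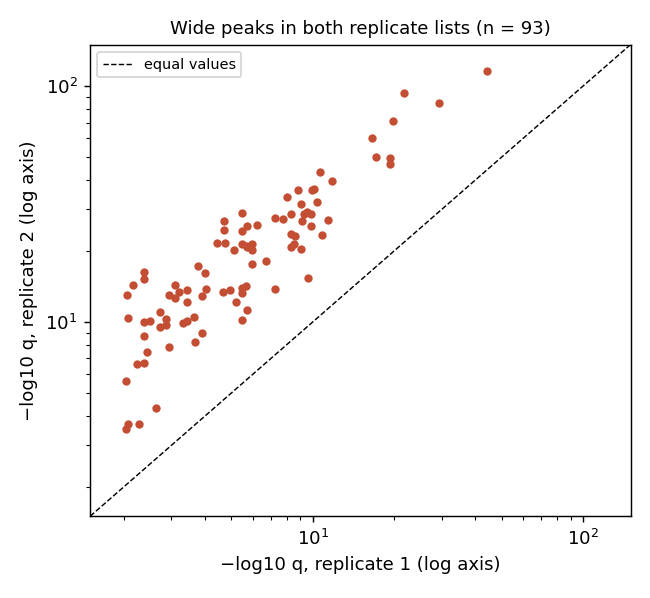
The 93 wide peaks found in both replicate lists, by −log10 q in replicate 1 (horizontal, log axis) and in replicate 2 (vertical, log axis); where several replicate peaks overlap a wide peak the strongest is shown. The dashed line marks equal values, and all 93 points lie above it.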

How the data were processed

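Peaks were read from the 3 deposited lists, 1 per ChIP replicate and 1 combined, on WormBase WS220 with PeakSeq as source, per the file headers. The authors deposited a q-value for each peak, all at most 0.00993. Not given in the sources used here were the caller's version, the aligner, the q threshold, the read depth and the way the combined list was made. Input lists and sequences were not analysed here, and the gene table used here is of another build.

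Strength was computed as −log10 q. Widths count both end positions, and lists were matched at an overlap of 1 bp. Where several replicate peaks overlapped a wide peak, the strongest was used. No test was run, since position and width chose the peaks and every other value comes from the same calls. The wide peaks, the classes and the rules were chosen with earlier results of these data known. The named peaks were the 20 strongest, the 3 widest, the strongest missing from each replicate list, those beside the longest and shortest gap and those at the limits of the rule. Functions were checked on simulated data. Alternatives covered the width minimum, the right limit, merging, the overlap rule, strength, the gap definition and each replicate list alone. Python 3.11.15, numpy 2.4.6, pandas 2.3.3, scipy 1.17.1 and matplotlib 3.10.9 were used.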

Additional observations from a re-analysis of the deposited data

How the results depend on the processing

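The number of wide peaks stayed within 1.5 times of 420 except without replicate 2. The single lists gave 93 (without replicate 2) to 350 (without replicate 1). With a width minimum of 200 bp the median −log10 q was 6.55, the share in replicate 1 30.1%, the share in replicate 2 94.5% and the median gap 5.80 kb. With only the middle 3 Mb, an alternative chosen after seeing the data, the median −log10 q was 5.96 and the shares 26.5% and 95.7%. The median −log10 q was 4.74 to 5.48 over the single lists. Among the stronger 50% of the wide peaks 44.3% were in replicate 1 and 100% in replicate 2. Wide peaks chosen in the replicate 2 list were in replicate 1 in 26.6% of cases, and those chosen in the replicate 1 list were in replicate 2 in 100%. The median gap was 5.68 kb with peaks within 1 kb merged and 5.15 to 19.2 kb over the single lists. The width minimum of 200 bp left out the 111 wide peaks of 150 to 199 bp, of which 64 had a −log10 q below 4. The stronger 50% left out the weaker peaks, and replicate 1 alone had fewer peaks. The part of each in these shifts was not tested. Ending the stretch at 17.0 Mb, an overlap of 50% of the shorter peak and gaps between midpoints left the values within the main intervals. No paired analysis was possible because the input samples that share the replicate numbers had no values here. The unknown depth limits any statement on peaks missing from replicate 1.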

Other observations

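Of the 623 replicate 2 peaks on the stretch, 384 overlapped a wide combined peak, 189 only a narrow one and 50 no combined peak at all. Those 50 had a median −log10 q of 2.42 and a maximum of 3.84. In replicate 1 all 99 peaks of the stretch overlapped a combined peak, 96 of them a wide one and 3 only a narrow one. The stretch held 32.9% of the replicate 1 list and 29.1% of the replicate 2 list, and the peaks on wide combined peaks made up 31.9% and 17.9%.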
